A study of Mus musculus with 6 samples.

Results

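The genes described here encode the enzymes that break glucose down to pyruvate, the enzymes that store and release glycogen, and the proteins that make and carry lactate. A fixed list of 32 symbols with the pyruvate kinase gene Pkm added gave 33 genes, all found by their symbol among the 37477 Ensembl gene IDs of the deposited table, and all 33 passed the filter on low counts. RNA came from quadriceps muscle of 20-week-old C57BL/6 mice, 3 libraries of wild type (WT) and 3 of mice with a knockout of estrogen receptor alpha (Esr1) in muscle only (MERKO, called KO here). No source used here names the promoter that drove the deletion or the deleted part of the gene. Nor do the labels tie a library to an animal, so p-values measure only the spread between these libraries, which may be technical.

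In muscle, glucose that enters the fibre is trapped by hexokinase, and glucose released from glycogen by phosphorylase joins the same path as glucose 6-phosphate. Phosphofructokinase commits the sugar to glycolysis, pyruvate kinase ends the path, and lactate dehydrogenase interconverts pyruvate and lactate, which monocarboxylate transporters move across the membrane. Fast glycolytic fibres are rich in these enzymes and in glycogen phosphorylase, while slow oxidative fibres favour the lactate dehydrogenase B subunit and the transporter MCT1.

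Total counts ranged from 7388365 to 8560244 per library. Esr1 lay at 5.58 to 6.70 CPM (counts scaled to the library's effective size) in WT and at 1.93 to 2.60 CPM in KO, with no overlap (adjusted p = 0.145 in edgeR's quasi-likelihood test and 3.63e-05 in its exact test). Skeletal muscle markers such as Acta1 and Ckm were abundant. Of 8 heart markers, Tnni3, Nppa, Nppb, Ryr2 and Mybpc3 each averaged below 1 CPM. Tnnt2 and Actc1 lay at 2.78 to 12.5 CPM, and Myh6, the atrial myosin, at 2123 to 2606 CPM. Whether the Myh6 counts hold reads of the slow myosin gene Myh7, which lies close to it on chromosome 14, was not tested. The fibre type went against what is known of the whole mouse quadriceps, which is built mainly of fast fibres. Per kb of exon, Myh7, the myosin of slow fibres, took 52.6% to 57.2% of the 4 adult myosin heavy chains in the 6 libraries, and Myh4, the myosin of the fastest fibres, 0.689% to 2.08%. Myh1, the myosin of intermediate fast fibres, took 10.8% to 12.7% in WT and 14.3% to 15.8% in KO, without overlap. The Myh4 share did not overlap either, at 0.689% to 1.51% in WT and 1.56% to 2.08% in KO. Its level did overlap, at 194 to 441 CPM in WT and 411 to 587 CPM in KO. Myh2 took 29.8% to 35.6% in WT and 26.9% to 30.6% in KO, with overlap. These shares had no test. Among 13 fast-fibre genes Actn3 (2.60-fold), Pvalb (1.83-fold), Myh1 (1.29-fold) and Tnnc2 (1.08-fold) were higher in KO without overlap. Myh2 was lower without overlap (0.902 times WT). Of all genes, 4.96% were higher and 5.45% lower without overlap. Of 11 slow-fibre genes, 5 log2 differences (KO minus WT) were above 0 and 6 below, and Pln was lower without overlap (0.742 times WT). None of these fibre-type genes without overlap passed the test (adjusted p = 0.989 for each in edgeR's quasi-likelihood test). No source used here states which part of the quadriceps was taken.

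None of the 33 genes passed the test between genotypes, and most levels differed by less than the spread between libraries. In edgeR's quasi-likelihood test with Benjamini-Hochberg adjustment 0 members were higher and 0 were lower at an adjusted p under 0.05, where 0% of the 13848 genes tested were called. The lowest adjusted p of a member was 0.989. DESeq2, limma voom, edgeR's exact test and edgeR's likelihood ratio test also called 0 members. At an unadjusted p under 0.05 stood 2 members, Phkg1 higher and Hk2 lower, against 4.26% of all genes. The groups did not overlap for 1 member, Phkg1, against 10.4% of all genes. On the log2 scale KO minus WT was above 0 for 23 members and below 0 for 10, with a median of 0.04, where 49.3% of all genes lay above 0 with a median of 0.00. This count ranged from 18 without KO replicate 2 to 24 without WT replicate 2 or KO replicate 3, and the median fell to 0.0049 without KO replicate 2. Of the fast-fibre genes, 10 of 13 lay above 0, with a median of 0.11. Their summed level was 23610 to 24920 CPM in WT and 24760 to 25350 CPM in KO. Of the slow-fibre genes, 5 of 11 lay above 0, with a median of -0.01. The part of fibre type in the members' values was not tested. Together the members took 1.03% ± 0.0153 of the scaled library in WT and 1.05% ± 0.0546 in KO (SD, n = 3 each). The intervals limit how large a difference these libraries could hide: the 95% interval stayed inside a 1.5-fold change in both directions for 29 of 33 members (not for Fbp2, Slc16a3, Phkg1 and Ppp1r3c), and inside a 2-fold change for 32 (not for Ppp1r3c). In bulk muscle, fewer cells of a type and less RNA per cell cannot be told apart.

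**Figure D1:**
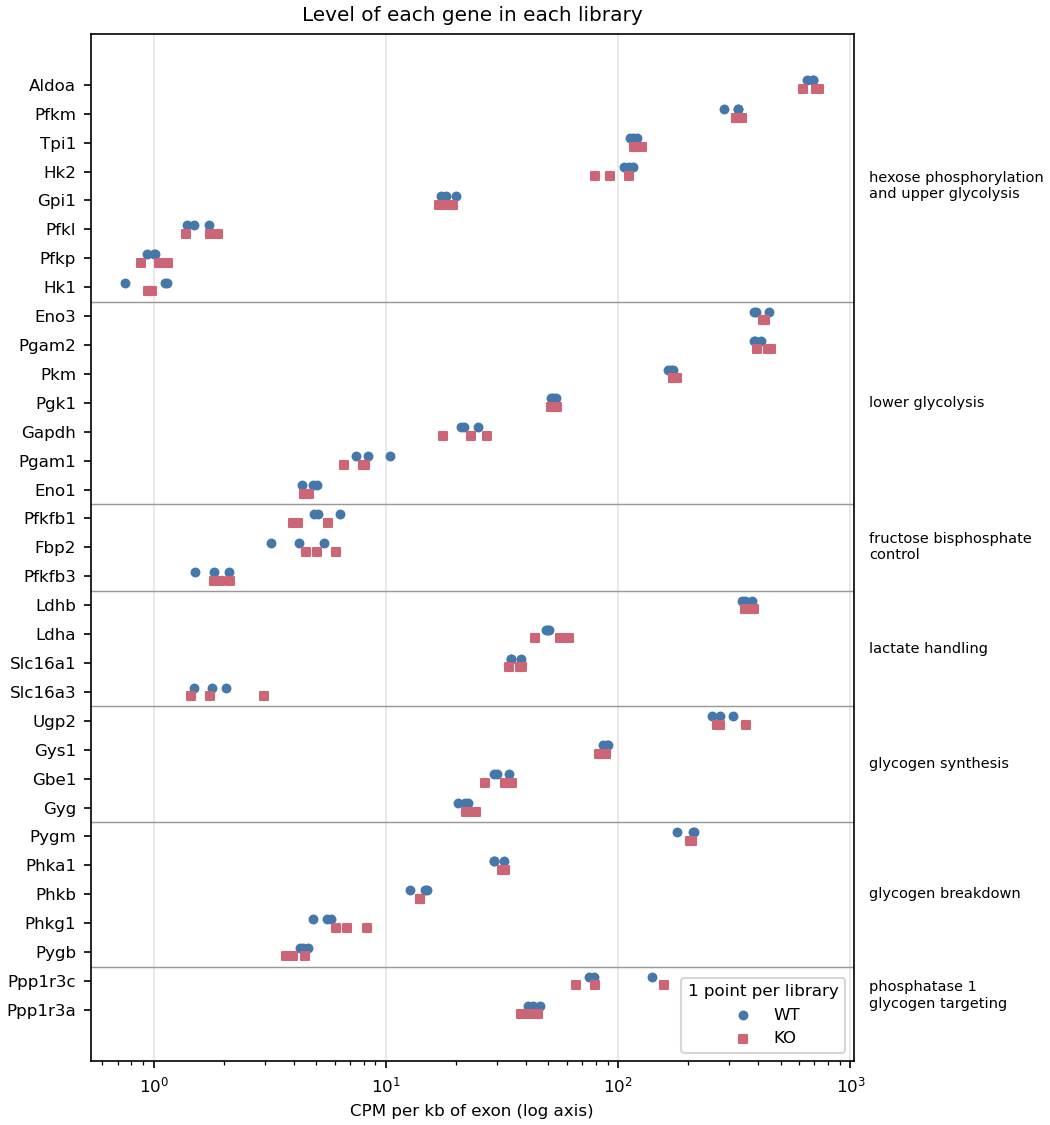
Level of each of the 33 genes in each library, as CPM per kb of exon on a log axis, grouped by role; circles are the 3 WT libraries and squares the 3 KO libraries. Aldoa is the highest at 683 CPM per kb averaged over the 6 libraries, Hk1 the lowest at 0.985, and the WT and KO points lie on top of each other for nearly every gene.

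**Figure D2:**
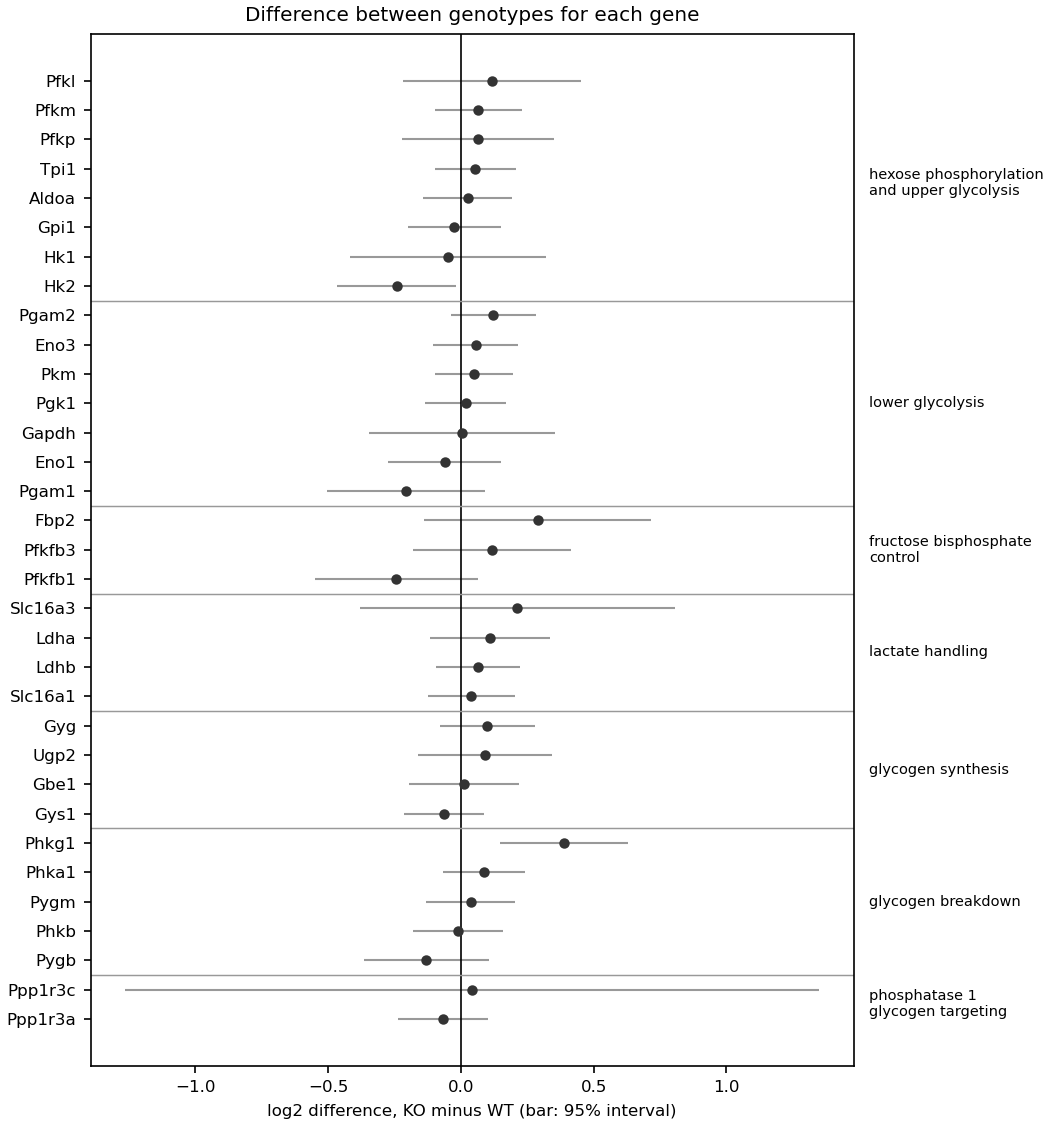
The log2 difference of KO minus WT for each gene, with its 95% interval, grouped by role. The intervals of Phkg1 and Hk2 leave out 0, both without passing the test over all genes, and that of Ppp1r3c is the widest, from -1.26 to 1.35.

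Several members cannot be read at face value, because parts of their transcripts recur in other genes, for some members in near-identical copies. No source used here states how multi-mapped reads were handled. Each member's main transcript was cut into all its 50-base words, and the share of words that also occur in an annotated transcript of another gene was counted. That share was 82.5% for Gapdh, 72.2% for Eno1, 68.0% for Pgk1, 41.5% for Pgam1, 34.4% for Pkm, 27.0% for Ldhb, 25.3% for Gpi1, 24.99% for Phkg1 and 17.1% for Ldha and for Pfkp. It was 0% for Hk2, Pfkm, Pgam2, Eno3 and Slc16a1 among others. The following coding stretches set isozymes beside stretches shared with other genes. Those of Ldha and Pgam1 were picked for being widely shared with other genes, so their sharing was set by that choice. They do not stand for the whole transcript. The Ldhb and Pgam2 stretches are the places that match them with the fewest differences. They are printed 5′ to 3′ in the direction of the gene, and capitals mark the bases at which the isozymes of a pair differ. The Ldha stretch lies in exon 3 of 8 at chr7:46849027-46849076 on the plus strand, and that of Ldhb in exon 3 of 8 at chr6:142501354-142501403 on the minus strand. The Pgam1 stretch lies in exon 2 of 4 at chr19:41915608-41915657 on the plus strand, and that of Pgam2 in exon 1 of 3 at chr11:5803497-5803546 on the minus strand (mm10).
Ldha: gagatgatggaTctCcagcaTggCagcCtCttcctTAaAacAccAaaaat
Ldhb: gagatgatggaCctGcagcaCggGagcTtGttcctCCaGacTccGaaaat
Pgam1: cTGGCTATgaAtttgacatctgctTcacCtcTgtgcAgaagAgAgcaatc
Pgam2: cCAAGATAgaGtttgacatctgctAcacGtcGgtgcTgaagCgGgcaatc
The Ldha and Ldhb stretches differ at 11 of 50 bases and those of Pgam1 and Pgam2 at 14. By contrast, the Ldha stretch occurs letter for letter in 3 other annotated genes, the Ldhb stretch in 1 and the Pgam1 stretch in 2, while the Pgam2 stretch occurs in 0. Levels of the genes with many shared words are therefore uncertain, and a comparison between genotypes holds only if reads were lost alike in all libraries.

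Hexose phosphorylation rested almost wholly on hexokinase 2 (Hk2), the form of insulin-responsive muscle. Hk2 lay at 694, 664 and 634 CPM in WT replicates 1, 2 and 3 and at 549, 663 and 474 CPM in KO replicates 1, 2 and 3. KO replicates 1 and 3 lay below all WT libraries, and KO replicate 2 lay among them. The KO level was 0.846 times that of WT, with a 95% interval from 0.725 to 0.988, and did not pass the test (unadjusted p = 0.0369, adjusted p = 0.989 in edgeR's quasi-likelihood test). The log2 difference of -0.24 moved to -0.13 without KO replicate 3 and to -0.37 without KO replicate 2. Hk1, the hexokinase of most tissues, had 48 to 75 counts per library and a ratio of KO to WT of 0.966 (interval 0.748 to 1.25).

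Among the other steps of the upper path, Aldoa, the aldolase that splits fructose 1,6-bisphosphate, was the member with the most RNA per kb. It lay at 1885, 2016 and 2008 CPM in the WT and at 2132, 2065 and 1816 CPM in the KO libraries. The KO libraries held both the highest and the lowest value, and the ratio was 1.02 (interval 0.905 to 1.14, adjusted p = 0.995 in edgeR's quasi-likelihood test). Pfkm, the muscle phosphofructokinase, averaged 1046 ± 83.7 CPM (SD, n = 3) in WT and 1095 ± 34.2 in KO. Tpi1, which interconverts the triose phosphates, averaged 320 ± 11.3 and 333 ± 13.0 CPM, and Gpi1, the glucose 6-phosphate isomerase, 119 ± 9.14 and 117 ± 8.36 CPM. The liver form Pfkl (10.2 ± 1.16 and 11.1 ± 1.77 CPM) and the platelet form Pfkp (13.2 ± 0.526 and 13.8 ± 1.84 CPM) were scarce. Of the 8 genes of the upper path, 5 had a log2 difference above 0 and 3 below, with a median of 0.04.

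In the lower path, the muscle enolase Eno3 had the most RNA per kb (416 CPM per kb), next to the muscle phosphoglycerate mutase Pgam2 (413 CPM per kb), a gap smaller than the spread between libraries. Eno3 lay at 669, 683 and 774 CPM in WT and at 735, 744 and 731 CPM in KO. All KO values lay inside the WT range, with a ratio of 1.04 (interval 0.930 to 1.16, adjusted p = 0.993 in edgeR's quasi-likelihood test). Pgam2 averaged 332 ± 12.5 CPM in WT and 361 ± 24.8 in KO. The interval of its ratio ran from 0.974 to 1.22. Pkm, the pyruvate kinase that ends the path, averaged 842 ± 18.8 and 871 ± 19.6 CPM. The log2 difference was above 0 for 5 of the 7 genes of the lower path and below 0 for 2, with a median of 0.02.

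For the widely expressed enzymes Gapdh, Pgk1 and Eno1, copies held more counts than the gene itself, and the groups overlapped with and without them. Whether these counts are reads of the gene or RNA of the copies was not tested. Gapdh, which oxidizes glyceraldehyde 3-phosphate, had 4445 counts over the 6 libraries, while 25 copies in the table together had 13176. Pgk1, the phosphoglycerate kinase, had 5619 counts against 18922 in its 2 copies, Pgk1-rs7 and Gm5537. Eno1, the widely expressed enolase, had 1185 against 4130 in 2 copies. Summed with its copies, Gapdh averaged 373 ± 30.9 CPM in WT and 369 ± 70.9 in KO, Pgk1 505 ± 15.6 and 529 ± 23.0, and Eno1 110 ± 6.57 and 114 ± 5.74. Alone, Gapdh averaged 93.4 ± 8.42 and 93.6 ± 20.0 CPM, Pgk1 118 ± 2.84 and 119 ± 3.78, and Eno1 25.5 ± 1.91 and 24.5 ± 0.633. The log2 difference of Gapdh reached from -0.15 to 0.16 as single libraries were left out, so no direction can be given for it.

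The forms known from striated muscle made up nearly all of the RNA counted under the named hexokinase, phosphofructokinase, mutase, enolase and phosphorylase genes in both genotypes. Shares were computed per kb of exon within each library and leave out reads counted under copies, which outnumbered those of Eno1. With copies Eno1 averaged 110 CPM in WT and 114 in KO, against 25.5 and 24.5 CPM alone. Eno3 averaged 709 and 737 CPM. The enolase shares with copies were not computed. Hk2 made up 99.1% ± 0.221 of both hexokinases in WT and 99.0% ± 0.152 in KO, Pfkm 99.2% ± 0.132 and 99.2% ± 0.0594 of the phosphofructokinases, and Pygm 97.8% ± 0.155 and 98.1% ± 0.189 of both phosphorylases (SD, n = 3 each). Lactate dehydrogenase was mostly of the B form, the subunit that heart and slow fibres favour: Ldhb made up 87.7% ± 0.511 of Ldha and Ldhb in WT and 87.4% ± 1.40 in KO. Its share was lower, at 82.5% ± 0.684 and 82.1% ± 1.88, when the longest transcript served as the length. Of 9 minor shares in 8 sets, 1 did not overlap between genotypes, where the levels of 10.4% of all genes did not overlap. Pgam1, the brain form of phosphoglycerate mutase, took 1.88%, 2.12% and 2.45% of the pair with Pgam2 in WT and 1.77%, 1.76% and 1.64% in KO. Every KO library lay below every WT library, by a mean of 0.427 percentage points. These shares had no test. Reads of Pgam1 and Pgam2 can be told apart at bases such as those in capitals above, but the printed Pgam1 stretch recurs in other genes. The Pgam1 level itself overlapped between genotypes, alone and with its copy Pgam1-ps2 added, when it averaged 27.5 ± 4.57 CPM in WT and 24.6 ± 2.90 in KO.

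**Figure D3:**
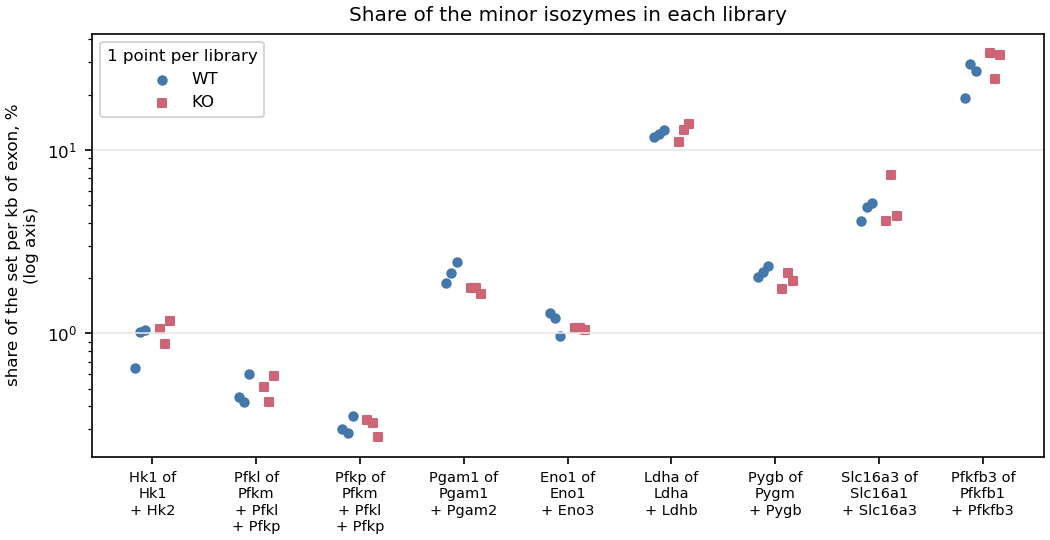
Share of each minor isozyme in its set in each library, in percent of CPM per kb of exon on a log axis; circles are WT and squares KO libraries. The KO points of Pgam1 (1.64% to 1.77%) all lie below its WT points (1.88% to 2.45%), and the points of the other 8 minor forms overlap.

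Control by fructose bisphosphate rests on the enzymes that make or remove fructose 2,6-bisphosphate, the activator of phosphofructokinase, and on the muscle fructose bisphosphatase Fbp2. Pfkfb1, the bifunctional enzyme of liver and muscle, lay at 25.5, 20.5 and 19.6 CPM in WT and at 16.8, 22.6 and 15.97 CPM in KO. KO replicate 2 lay above WT replicates 2 and 3, while KO replicates 1 and 3 lay below all of WT. The ratio was 0.845 (interval 0.683 to 1.04, adjusted p = 0.989 in edgeR's quasi-likelihood test), the lowest log2 difference of all members. Fbp2 averaged 6.28 ± 1.62 CPM in WT and 7.67 ± 1.18 in KO, and Pfkfb3, the form with a strong kinase, 13.7 ± 2.31 and 14.8 ± 1.18 CPM. The interval of the ratio of Fbp2 ran from 0.908 to 1.64, so changes inside that range are compatible with these libraries.

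Lactate handling was led by Ldhb, which lay at 590, 554.5 and 534 CPM in WT and at 553, 599 and 604 CPM in KO. KO replicates 2 and 3 lay above all WT libraries and KO replicate 1 among them, for a ratio of 1.05 (interval 0.938 to 1.17, adjusted p = 0.993 in edgeR's quasi-likelihood test). Its copy Gm5514 had 6565 counts against 27170 of Ldhb, and their sum overlapped between genotypes too (693 ± 35.0 and 728 ± 34.6 CPM). Ldha, the subunit of fast fibres, spread little in WT (162 to 167 CPM) and more in KO, with 144, 186 and 203 CPM. Slc16a1 encodes MCT1, the transporter of oxidative fibres, and averaged 158 ± 8.75 CPM in WT and 163 ± 10.7 in KO. Slc16a3 encodes MCT4, the lactate exporter of glycolytic fibres, and lay at 7.90, 9.44 and 10.9 CPM in WT and 7.69, 15.8 and 9.29 CPM in KO. Its KO mean rested on KO replicate 2: the log2 difference was 0.21 with it and -0.15 without it. All 4 genes of this group had a log2 difference above 0, with a median of 0.09, and none passed the test; Slc16a3 fell below 0 without KO replicate 2.

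Glycogen is built from UDP-glucose, which Ugp2 makes, on a primer of glycogenin (Gyg) by glycogen synthase (Gys1) and the branching enzyme (Gbe1). Ugp2 lay at 838, 778 and 956 CPM in WT and at 838, 1086 and 814 CPM in KO. KO replicate 2 held the highest value and the other KO libraries lay inside the WT range, for a ratio of 1.06 (interval 0.894 to 1.27, adjusted p = 0.993 in edgeR's quasi-likelihood test). Gys1 averaged 424 ± 12.4 CPM in WT and 406 ± 14.7 in KO. Gyg averaged 50.6 ± 2.74 and 54.2 ± 2.89 CPM, and Gbe1 166 ± 13.8 and 167 ± 22.7 CPM. The intervals of these 4 genes lay between 0.862 and 1.27.

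Glycogen breakdown gave the one member whose genotypes did not overlap. Phkg1 encodes the catalytic subunit of muscle phosphorylase kinase, the enzyme that activates glycogen phosphorylase. It had 281, 265 and 250 counts in WT and 456, 329 and 358 in KO, or 37.6, 36.2 and 31.7 CPM against 54.0, 39.8 and 44.3 CPM. Every KO library lay above every WT library, KO replicate 2 by little. The ratio was 1.31 (interval 1.11 to 1.55) and did not pass over all genes (unadjusted p = 0.00355, adjusted p = 0.989 in edgeR's quasi-likelihood test). The adjusted p ranged from 0.0544 without the filter on low counts to 1.0 over the alternatives tried. Without KO replicate 1 the log2 difference dropped from 0.39 to 0.26. In the authors' deposited table Phkg1 had a log2 fold change of 0.41 with p = 0.00253 and an adjusted p of 1.0.

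The counts of Phkg1 could hold reads of another gene. Phkg1 lies at chr5:129863421-129898549 on the minus strand (mm10), and 9.68% of its exonic bases overlap exons of Sumf2. Of the 50-base words of its main transcript, 24.99% also occur in other genes, and Sumf2 holds at least 20% of the words. The library kit did not mark strand, so reads in the overlap cannot be assigned to either gene by strand. Sumf2, which encodes a protein related to sulfatase-modifying factor, had 537 counts over the 6 libraries against 1939 of Phkg1, and lay at 11.5, 10.4 and 8.87 CPM in WT and 14.2, 11.4 and 11.3 CPM in KO. The sum of both genes did not overlap between genotypes either, with a ratio of 1.28. Actn3 was also higher in every KO library (36.5 to 69.4 CPM in WT and 126 to 144 CPM in KO). It had the largest difference among 13 fast-fibre genes, of which 10 lay above 0 on the log2 scale and 3 below. Without overlap, 4 of the 13 were higher and 1, Myh2, was lower, against 4.96% and 5.45% of all genes. The parts of Sumf2 and of fast fibres in the difference were not tested.

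The other genes of breakdown did not share the pattern of Phkg1. Pygm, the muscle glycogen phosphorylase, had the most RNA per kb of them and lay at 684.5, 677 and 574.5 CPM in WT and at 668, 663 and 654 CPM in KO. The KO values lay inside the WT range, with a ratio of 1.03 (interval 0.913 to 1.15, adjusted p = 0.993 in edgeR's quasi-likelihood test). Phka1 and Phkb, the regulatory alpha and beta subunits of the same kinase, averaged 189 ± 10.6 and 105 ± 9.07 CPM in WT and 200 ± 3.26 and 104 ± 0.252 CPM in KO. Their ratios were 1.06 (interval 0.955 to 1.18) and 0.993 (interval 0.884 to 1.12). Pygb, the brain phosphorylase, averaged 21.3 ± 0.888 and 19.5 ± 1.90 CPM. Whether Phkg1 differed from the other subunits in its response was not tested.

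**Figure D4:**
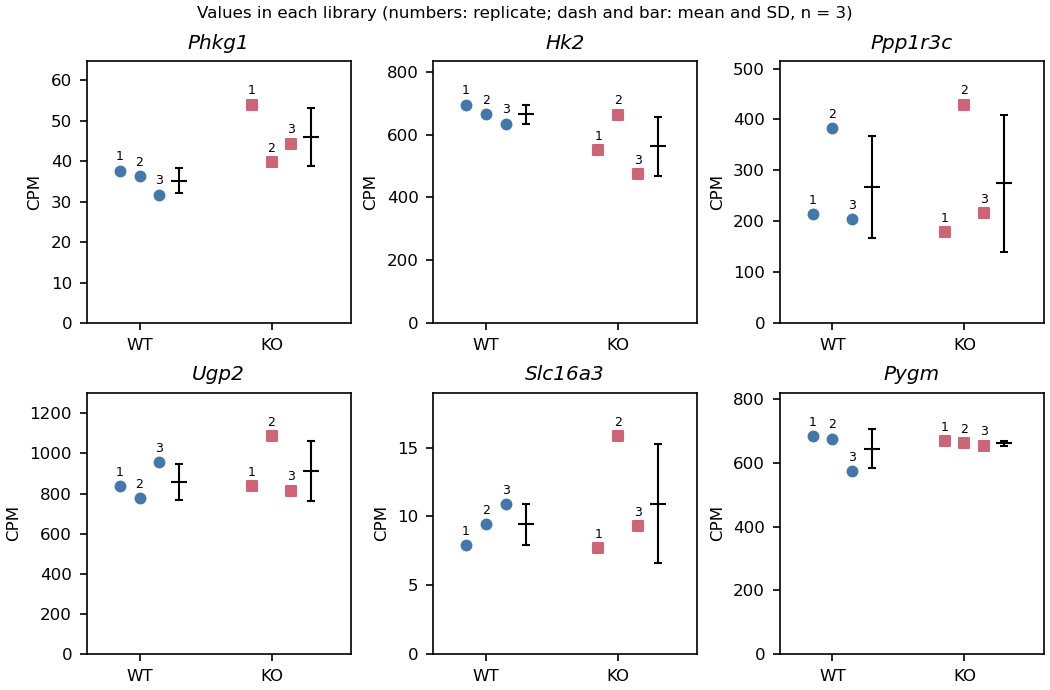
CPM of 6 members in each library, numbered by replicate, with the mean and SD of each genotype (n = 3); every axis starts at 0. Phkg1 is the only one of the 6 whose WT and KO points do not overlap, and Ppp1r3c is high in WT replicate 2 and KO replicate 2 alike.

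Protein phosphatase 1 is brought to glycogen by targeting subunits, and Ppp1r3c was the member with the widest spread. It lay at 214, 382 and 204 CPM in WT and at 179, 429 and 216 CPM in KO. WT replicate 2 and KO replicate 2 stood apart from the other 4 libraries, and the genotypes had nearly the same mean (267 ± 100 and 274 ± 135 CPM). The SD of its log2 level within genotypes, 0.589, was at percentile 99.2 of the 965 genes above 100 CPM. Its ratio of 1.03 thus had an interval from 0.417 to 2.55 (adjusted p = 0.999 in edgeR's quasi-likelihood test). Changes inside that range are compatible with these libraries. The summed level of 5 red blood cell markers (hemoglobin genes and Alas2) was 1730 CPM in WT replicate 2 and 1706 CPM in KO replicate 2, 1512 CPM in WT replicate 3 and 695 to 1009 CPM in the other 3. Its part in the spread of Ppp1r3c was not tested. Ppp1r3a, the large targeting subunit of striated muscle, lay at 286 to 322 CPM in WT and 265 to 314 CPM in KO.

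The highest value of a member lay in WT replicates 1, 2 and 3 for 5, 4 and 3 members and in KO replicates 1, 2 and 3 for 8, 8 and 5. The members highest in KO replicate 2 were Fbp2, Gyg, Pgam2, Pgk1, Ppp1r3c, Slc16a3, Tpi1 and Ugp2. The lowest value lay in these libraries for 6, 2 and 8 members in WT and for 6, 1 and 10 in KO. The median SD of the log2 level within genotypes was 0.11 over the members and 0.17 over all genes tested, and 13 of 33 members lay above the latter.

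Of the wider pathway, 72 further genes were in the table, 60 were tested and 0 were called in either direction. The groups did not overlap for 1 gene higher and 6 lower in KO, against 4.96% and 5.45% of all genes, and 30 of the 60 log2 differences were above 0. At an unadjusted p under 0.05 stood 0 higher and 3 lower, against 1.99% and 2.27%. For glucose entry, Slc2a4, the insulin-responsive transporter GLUT4, averaged 380 ± 15.2 CPM in WT and 367 ± 26.4 in KO. Slc2a12 and Slc2a3, further glucose transporters, had log2 differences of 0.14 and -0.16. All 8 other glycolytic isozymes and regulators tested had a log2 difference above 0, with a median of 0.08 and overlapping groups. Among them Tigar, a fructose bisphosphatase, averaged 23.3 ± 2.06 and 26.5 ± 3.82 CPM and Pfkfb4 13.4 ± 2.40 and 15.3 ± 1.93 CPM, and Bpgm and Gpd2 had log2 differences of 0.09 and 0.07. Of 17 genes of pyruvate and lactate use, 11 were above 0 and 6 below. Pdp2, which reactivates pyruvate dehydrogenase, averaged 19.6 ± 4.32 CPM in WT and 15.8 ± 0.660 in KO (unadjusted p = 0.0441, adjusted p = 0.989 in edgeR's quasi-likelihood test). The log2 differences of Mpc2, Ldhd and Pcx were 0.13, 0.18 and 0.15.

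Among 18 other glycogen genes, 5 log2 differences were above 0 and 13 below, with a median of -0.09, and 1 gene was higher and 3 lower without overlap, against 4.96% and 5.45% of all genes. Epm2a, the glycogen phosphatase laforin, lay at 95.2, 97.6 and 92.4 CPM in WT and at 98.6, 106 and 109 CPM in KO. Stbd1, which tethers glycogen to membranes, averaged 5.33 ± 0.523 CPM in WT and 4.19 ± 0.394 in KO. The phosphoglucomutase named Pgm2 in the deposited table averaged 243 ± 14.3 and 226 ± 3.10 CPM, and Gsk3a, a kinase that inhibits glycogen synthase, 20.8 ± 0.527 and 19.2 ± 0.474 CPM. Gsk3a was outside the rule for named genes and is given because its groups did not overlap. Ppp1ca, a catalytic subunit of protein phosphatase 1, had a log2 difference of 0.14. The adjusted p of each of these genes was 0.989 or 0.993 in edgeR's quasi-likelihood test.

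Of 12 transcription factors tested, 3 were lower in KO without overlap, against 5.45% of all genes, and none passed the test. They were Hif1a, Epas1 and Arnt, subunits of hypoxia-inducible factors, which bind ACGTG in promoters of glycolytic genes. Epas1 (HIF-2 alpha) lay at 66.2, 71.8 and 64.1 CPM in WT and at 59.2, 60.4 and 59.2 CPM in KO (log2 difference -0.18, unadjusted p = 0.0417). Arnt, the shared beta subunit, lay at 32.3, 32.0 and 26.7 CPM in WT and at 26.0, 24.9 and 26.5 CPM in KO (log2 difference -0.23, unadjusted p = 0.0368). Hif1a lay at 55.1, 51.4 and 52.4 CPM in WT and at 49.3, 50.1 and 44.3 CPM in KO (log2 difference -0.14, unadjusted p = 0.113). None passed over all genes (adjusted p = 0.989 for each in edgeR's quasi-likelihood test), and Mlxip had a log2 difference of -0.10. Epas1 is abundant in endothelium, and the summed level of 6 endothelial markers was 254 to 278 CPM in WT and 224 to 267 CPM in KO, with Pecam1 lower without overlap (90.0 to 93.1 and 72.8 to 84.1 CPM). The part of endothelial cells in these values was not tested.

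RefSeq promoter windows (250 bases before to 50 after each start, GRCm38.p6) were found for all 33 members, 48 windows in all. ACGTG, searched on both strands, so also as CACGT, occurred in 21 of 48 member windows (43.8%, in 18 members) and in 19.6% of the 32851 windows of all genes. It overlaps CACGTG, the E-box of other factors, and base composition was not matched. The estrogen response element (GGTCA and TGACC with 3 bases between them) occurred in 0 of 48 member windows and in 0.07% of all. The single site AGGTCA, which this element can contain, occurred on either strand in 18.8% and 16.3%. The stretches before the start of Hk2 (chr6:82774455-82774704, minus strand) and of Ldha (chr7:46845554-46845803, plus strand) are shown as the windows of the hexokinase with an unadjusted p under 0.05 and of the lactate dehydrogenase that held ACGTG, 5′ to 3′ along the gene, with ACGTG and CACGT in capitals.
Hk2: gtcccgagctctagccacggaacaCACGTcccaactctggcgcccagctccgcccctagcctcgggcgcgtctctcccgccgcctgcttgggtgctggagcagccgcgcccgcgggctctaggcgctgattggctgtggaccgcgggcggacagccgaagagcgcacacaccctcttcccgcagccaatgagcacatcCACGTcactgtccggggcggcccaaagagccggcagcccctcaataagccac
Ldha: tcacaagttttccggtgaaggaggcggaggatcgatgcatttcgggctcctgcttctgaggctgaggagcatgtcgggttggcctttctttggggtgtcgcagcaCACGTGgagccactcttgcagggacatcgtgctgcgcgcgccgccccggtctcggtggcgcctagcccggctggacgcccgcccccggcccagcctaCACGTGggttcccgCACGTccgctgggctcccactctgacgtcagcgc
The Hk2 window holds 2 matches and the Ldha window 5, of which 2 pairs overlap within CACGTG. A second annotated start of Ldha had 0 matches in its window. These matches are letters in a window, and no binding was measured. Whether the number of matches bears on the level of Hk2 or Ldha was not tested. For Ldha the WT mean was 165 ± 2.17 CPM and the KO mean 178 ± 30.4 CPM. Its WT libraries (162 to 167 CPM) all lay between the lowest and the highest KO library (144 and 203 CPM).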

How the data were processed

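RNA-seq libraries of WT and KO quadriceps (3 each) were compared. Per the labels' protocols RNA was taken up in Trizol and libraries were made with a TruSeq kit, which does not mark strand. Reads were processed with TopHat 1.3.3 and edgeR on mm10, per the submitters' processing notes, which give no roles. No source used here names the read counter, the annotation or the handling of multi-mapped reads. The table the authors deposited holds whole-number counts per Ensembl gene, a log2 fold change and log2 mean abundance, and a p-value and adjusted p-value for each gene.

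Of 37506 rows, 29 repeated an ID with identical counts and were merged. Counts were filtered with filterByExpr (13848 genes kept), scaled by TMM and tested two-sided on genotype with edgeR 4.0.16 (robust quasi-likelihood F-test, R 4.3.3), Benjamini-Hochberg adjusted over all genes, threshold 0.05. CPM use TMM-scaled sizes; levels per kb use the union of exons of GENCODE M21, which 32626 IDs matched. The spread of log2 levels used CPM + 0.5. Copies were genes holding at least 20% of a member's 50-base words. Python 3.11.15 with pandas 2.3.3 made the tables.

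The members and lists were chosen with earlier results of these data known. Values in each library are given for members with an unadjusted p under 0.05 or without overlap between groups, and for the member of highest level per kb in each role group; of other pathway genes, up to 4 per list with the smallest p are named, and a gene that this rule picks is not reported here. Others with values by library (Ldha, Slc16a3, Pgam1 shares) were chosen after values were seen. Alternatives were other scalings and filters, DESeq2 1.42.0, limma voom 3.58.1, edgeR's exact and likelihood ratio tests, a replicate block, removal of mitochondrial genome and Ttn counts, leaving out each library, the longest transcript as length and, chosen after seeing the data, sums with copies. The tests were checked on simulated data. Protein sequences were not used here.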

Additional observations from a re-analysis of the deposited data

How the results depend on the processing

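No member was called under any of the 17 alternatives of the genotype comparison. Over all genes, where the quasi-likelihood test called 0, the count called higher was 14 with no filter on low counts, 2 in DESeq2, 1 in limma voom, and 4 each in edgeR's exact and likelihood ratio tests, and the count called lower was 5, 0, 0, 1 and 1. Leaving out single libraries gave 0 to 2 higher and 0 to 1 lower, all without WT replicate 1. The members' median log2 difference was 0.0049 without KO replicate 2 and 0.047 at most over the left-out libraries. Directions turned for Gapdh (voom -0.014, replicate block -0.0121), Ppp1r3c (voom -0.0018, replicate block -0.0001) and Phkb (0.0076 with no scaling); the cause was not tested. The difference in the Eno1 share grew from -0.0981 to -0.227 percentage points with the longest transcript as length. Leaving out single libraries turned the direction of 12 members: the log2 difference ran from -0.2171 to 0.047 for Hk1, -0.0776 to 0.0376 for Gpi1, -0.0001 to 0.1017 for Pfkm, -0.0256 to 0.1636 for Pfkp, -0.0222 to 0.0921 for Aldoa, -0.1474 to 0.1587 for Gapdh, -0.1514 to 0.4145 for Slc16a3, -0.0734 to 0.1161 for Gbe1, -0.0519 to 0.1757 for Ugp2, -0.041 to 0.081 for Pygm, -0.0809 to 0.0328 for Phkb and -0.4311 to 0.3939 for Ppp1r3c. Deviations of the libraries numbered 2 were correlated (0.229) and those numbered 1 and 3 were not (-0.0109 and -0.0152, over 10005 genes). Between libraries of unlike number the correlation ran from -0.193 (WT replicate 2 with KO replicate 1) to 0.187 (WT replicate 3 with KO replicate 1). The numbers were therefore not taken to pair the libraries. The fit with the replicate block called 0 genes in either direction and changed no member's call (Phkg1 adjusted p = 0.908). Ppp1r3c and Slc16a3 had the widest intervals of the members, followed by Fbp2 and Hk1, which lay under 10 CPM.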
